A study of Mus musculus with 32 samples.

Results

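Cytosolic ribosomal protein genes were followed in mouse embryonic stem (ES) cells that carry altered forms of CTCF. Members were all genes of the expression table whose symbol begins with Rpl or Rps and continues with the number of a ribosomal protein, with the letter or paralog suffixes in use for them. This rule found 81 of the 24940 genes, 49 of the large subunit and 32 of the small subunit. Of these, 7 lie on chromosome 11 and 74 on other chromosomes. The rule used symbols only, no measured value. It leaves out ribosomal proteins with other symbols, such as Rplp0, Rpsa and Rack1, which are described after the members.

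The ribosome builds every protein of the cell from a large subunit, which joins amino acids and holds the tunnel through which the new chain leaves, and a small subunit, which reads the mRNA. Their proteins are needed in equal numbers, and their mRNAs commonly begin with a C followed by a run of pyrimidines, the 5′ terminal oligopyrimidine (TOP) tract, through which the mTOR pathway adjusts their translation. The mammalian genome holds many processed pseudogene copies of these genes, which makes short reads hard to assign. ES cells grow fast and make ribosomes at a high rate.

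All cells were ES cells of strain 129. In the GC lines they expressed CTCF, a DNA-binding zinc finger protein, fused to green fluorescent protein (GFP-CTCF). In the d8 lines they expressed the same fusion without zinc finger 8 (GFP-CTCF-Del8), so that both genotypes carry the GFP tag and neither is an untagged control. RNA-seq covered GC lines 1 and 2 with 3 samples each (A, B and C), d8 lines 1 and 2 with 3 samples each and d8 line 3 with 2. How the lines were derived and what became of the unfused Ctcf alleles is not given in the sources used here. The cell line was the unit of comparison, 2 GC against 3 d8, and the samples of a line share their culture history. The mean of a genotype is given ± SD over its line means.

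Depth was even, at 14.3 to 16.7 M reads per library, and the members took 1.69 to 2.17% of the reads in genes. These depths were recovered from the steps between low RPKM values, with RPKM read as reads per kilobase of exon and per M reads of the library; the values alone do not fix that scale, and fold changes do not depend on it. All 8 ES cell markers stood above 1 RPKM in every library, with sums of 1434 to 1890 RPKM in GC and 1477 to 1883 RPKM in d8. Within these sums Nanog was lower in d8, at 124 RPKM in GC and 55.1 RPKM in d8 (limma adjusted p = 0.02855). Tdgf1 was higher, at 185 and 257 RPKM (limma adjusted p = 0.0296). The other ES cell markers were not called between genotypes. Of 6 fibroblast or feeder markers 3 stood above 1 RPKM in every library, and the sum of the 6 ran from 160 to 606 RPKM in GC and from 75.6 to 159 RPKM in d8. The sum of 5 trophoblast markers ran from 191 to 375 RPKM in GC and from 65.1 to 258 RPKM in d8, and that of 5 primitive endoderm markers from 6.97 to 11.8 RPKM in GC and from 10.1 to 79.0 RPKM in d8. Among these markers Col1a2 and Acta2, and Col1a1 and Krt19 on chromosome 11, were lower in d8 (limma adjusted p = 0.01226 to 0.02855). Gata4 was higher (limma adjusted p = 0.01594). The others of these lists were not called, and Sox17 was not tested. No listed marker was at 0 in every library, and the part of such cells in the results was not tested. Ctcf stood at 5.58, 5.96 and 6.23 RPKM in GC line 1 and between 22.9 and 37.2 RPKM in every other library, and a level over the whole gene does not show the loss of zinc finger 8. Library GC 1C stood apart from the rest: it held the highest value of all 14 libraries in 46 of the 79 tested members.

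The members spanned a wide range of levels. Among the highest were Rpl4 at 1804 RPKM and Rpl8 at 1707 RPKM as means of the 5 lines, followed by Rpl13a at 1148 RPKM, Rps15 at 944 RPKM and Rps3 at 905 RPKM. The median member stood at 71.2 RPKM. The large-subunit members had a median of 50.3 RPKM and the small-subunit members one of 120 RPKM. Between 10 and 100 RPKM lay 25 members, and 20 lay under 10 RPKM. The lowest of the tested large-subunit members were Rpl24 at 1.35 RPKM, Rpl36a at 2.06 RPKM and Rpl21 at 3.16 RPKM, and the lowest of the small subunit were Rps23 at 2.14 RPKM, Rps29 at 2.36 RPKM and Rps13 at 2.69 RPKM.

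These levels are those of the authors' read assignment, and they are uneven for proteins that enter the ribosome in equal numbers. RefSeq names 307 pseudogenes after the members. The 21 members with no pseudogene named after them had a median of 128 RPKM, the 37 with 1 to 4 had 85.4 RPKM and the 23 with 5 or more had 39.3 RPKM. Across the 81 members the rank correlation between level and number of named pseudogenes was -0.25, a description over genes that share libraries. Rps12 with 24 such pseudogenes and Rpl31 with 23 stood at 14.7 and 13.1 RPKM. Rpl24 and Rps28, with none named after them, stood at 1.35 and 4.40 RPKM. Pseudogenes under other names were not counted. Levels of members with such copies are uncertain, and differences between lines in them rest on the reads that the authors' counting kept. In 19 members fewer than 100 reads per library were counted on average, down to 14 reads for Rps29 and 14.1 reads for Rpl24 among the tested ones. These include members with no pseudogene named after them, such as Rpl24 and Rpl11, the latter at 43.4 reads. The cause of the low counts was not tested.

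As a whole, the members took a somewhat larger share of all RPKM in each d8 line than in either GC line. The difference was not tested. Per line the share was 5.29% in GC line 1, 5.20% in GC line 2, 5.84% in d8 line 1, 5.36% in d8 line 2 and 5.67% in d8 line 3. The GC mean was 5.25 ± 0.0674% (SD, n = 2 lines) and the d8 mean 5.62 ± 0.243% (SD, n = 3 lines), a difference of 0.375 percentage points. Library GC 1C reached 5.89%, whereas the other GC libraries ran from 4.87 to 5.33%, so that the libraries of the genotypes overlapped. The summed RPKM of the members did not separate the lines, at 18422 and 17814 in GC lines 1 and 2. It was 19591, 17629 and 19033 in d8 lines 1, 2 and 3. Without the chromosome 11 members the shares of RPKM were 5.10% in GC and 5.51% in d8. In recovered reads the shares of all members were 1.86% and 1.94%, and the lines overlapped, with d8 line 2 at 1.84% and GC line 1 at 1.88%. The summed RPKM of the large subunit over that of the small subunit was 0.988 and 0.998 in the GC lines and 0.946, 0.963 and 0.924 in the d8 lines. This ratio was lower in each d8 line than in either GC line, and it was not tested. As genotype means, the large subunit summed to 9026 RPKM in GC and 9104 RPKM in d8, and the small subunit to 9092 and 9647 RPKM. The chromosome 11 members, all of the large subunit except Rps27a, summed to 505 and 373 RPKM. The ratio without chromosome 11 was not calculated.

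Between the genotypes the set as a whole did not move in one direction. Of the 81 members 79 passed the level filter, which asks for 1 RPKM or more as the mean of a genotype, and Rpl3l and Rpl32l did not. Log2 fold changes are d8 minus GC on the log2(RPKM + 1) scale, which understates changes of low genes. By limma with Benjamini-Hochberg adjustment over all 12468 genes tested, 3 members fell and none rose, where 5.74% of all genes tested fell and 3.02% rose. At an unadjusted p under 0.05, 7 members were lower and 2 were higher, where 2007 and 1463 of the 12468 genes tested were. The members that fell were Rpl26 and Rpl27, both on chromosome 11, and Rpl22l1 on chromosome 3. All line means of d8 lay below those of GC in 14 of the 79 and above them in 6, where 25.9% and 20.2% of all genes tested did so. Of the 79, 39 had a log2 fold change below 0 and 40 above it. Their median was 0.01, with quartiles of -0.13 and 0.09, against a median of -0.02 with quartiles of -0.19 and 0.15 over all genes tested.

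**Figure D1:**
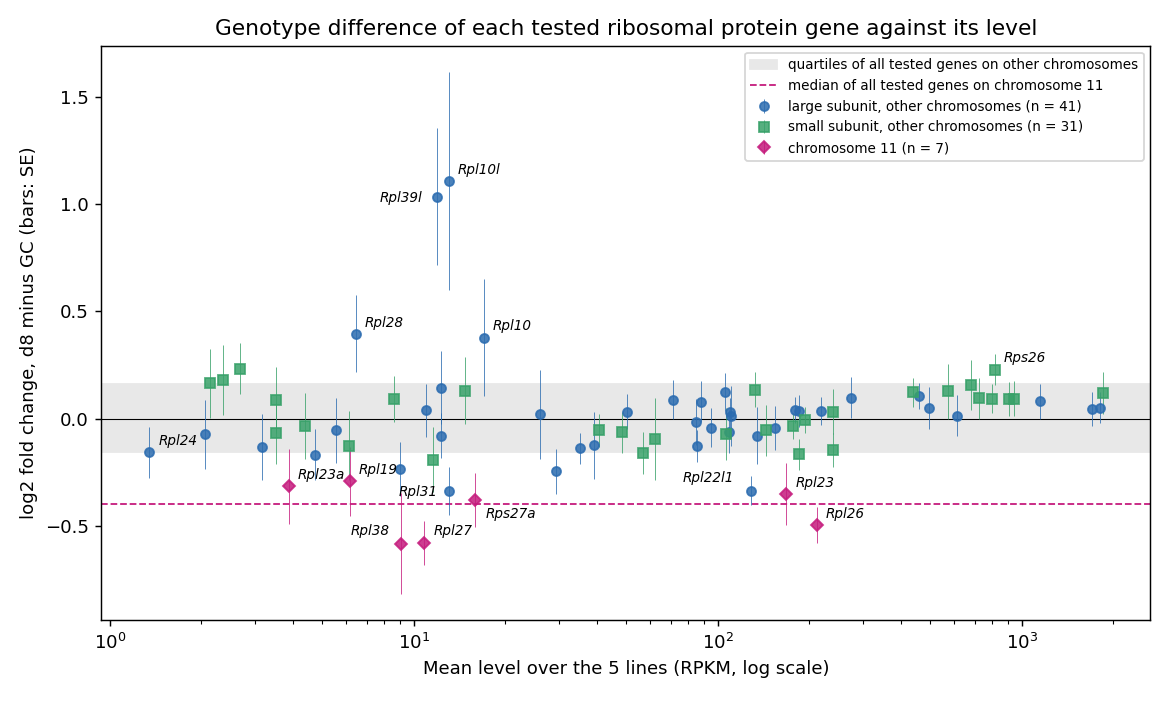
Log2 fold change of each tested ribosomal protein gene (d8 minus GC, bars are SE) against its mean RPKM over the 5 lines on a log axis, with colours and symbols for subunit and chromosome 11; the grey band spans the quartiles of all tested genes on other chromosomes and the dashed line is the median of all tested genes on chromosome 11. The 7 members on chromosome 11 lie between -0.58 and -0.29, and Rpl10l and Rpl39l stand highest at 1.11 and 1.04.

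The chromosome 11 members were lower in d8 as a group, and so was the whole chromosome. All 7 had a negative log2 fold change, from -0.58 to -0.29 with a median of -0.38. The 1067 tested genes of chromosome 11, which include them, had a median of -0.40, and 36.3% of them fell by the test, against 2 of the 7 members. Every d8 line mean lay below every GC line mean in 6 of the 7, against 70.8% of all tested genes of the chromosome, and above in none, against 3.94%. The summed RPKM of these members was 505 ± 15.8 (SD, n = 2 lines) in GC and 373 ± 14.2 (SD, n = 3 lines) in d8, a ratio of 0.737. The 72 tested members elsewhere centred on a log2 fold change of 0.03 (median) with quartiles of -0.08 and 0.10, and 1 of them fell, where 2.89% of all tested genes there fell. Gene copy number was not measured, so fewer copies of chromosome 11 and less RNA per copy cannot be told apart here. In bulk samples, fewer cells of a type and less RNA per cell cannot be told apart either.

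Rpl26 (chromosome 11, 68901566 to 68904534 in mm10) encodes a protein near the exit of the polypeptide tunnel, and in human cells it binds Mdm2. Its lowest, median and highest values were 226, 250 and 331 RPKM in the GC libraries and 150, 182 and 200 RPKM in the d8 libraries. No d8 library reached any GC library. The line means were 257 ± 16.01 (SD, n = 2 lines) in GC and 181 ± 13.3 (SD, n = 3 lines) in d8. The log2 fold change was -0.50 (SE 0.08, limma adjusted p = 0.0254). It ran from -0.55 to -0.44 with 1 line left out, and the call was then kept without d8 line 2 alone (limma adjusted p = 0.0439) and lost without any other line (limma adjusted p = 0.0547 to 0.105).

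Rpl27 (chromosome 11, 101442245 to 101445596) encodes a large-subunit protein whose human gene is mutated in some patients with Diamond-Blackfan anaemia. Its GC libraries ran from 10.9 over a median of 14.04 to 16.5 RPKM, and its d8 libraries from 6.36 over 8.91 to 10.9 RPKM. Here too the libraries of the genotypes did not overlap, the closest being 10.91 in GC 1A and 10.88 in d8 2C. Such separation of all libraries, with d8 lower, was seen in 41.2% of the tested genes of chromosome 11, 4.18% of those elsewhere and 7.35% of all. Among members it was seen in Rpl26 and Rpl27 only. The log2 fold change was -0.58 (SE 0.10, limma adjusted p = 0.0265), on about 123 reads per library. With any 1 line left out it ran from -0.65 to -0.53 and missed the threshold (limma adjusted p = 0.0641 to 0.0993).

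The other chromosome 11 members missed the threshold. Rpl38 (114668781 to 114672331), which in mouse is known from the Tail short mutant with its skeletal patterning defects, had the most negative log2 fold change, -0.58 (SE 0.24, limma adjusted p = 0.169). Its GC libraries held 10.9, 11.3 and 21.9 RPKM in line 1 and 8.93, 10.6 and 6.66 RPKM in line 2, and its d8 libraries ran from 3.20 to 10.1 RPKM. Library GC 1C was the high one, and without it the log2 fold change of Rpl38 was -0.43. Rps27a (29545842 to 29548040), whose protein is made as a fusion with ubiquitin, ran from 15.4 to 28.0 RPKM in GC and from 11.9 to 16.1 RPKM in d8. Its log2 fold change was -0.38 (SE 0.13, limma adjusted p = 0.110). Without GC 1C it was -0.28.

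Rpl23 (97777526 to 97782439), an Mdm2-binding protein in human cells, differed among the d8 lines. Its d8 line means were 135, 186 and 135 RPKM in lines 1, 2 and 3, beside 187 and 198 RPKM in the GC lines. Line 2 thus stood at the GC level while lines 1 and 3 stood lower. The log2 fold change was -0.35 (SE 0.15, limma adjusted p = 0.173), and without d8 line 2 it was -0.50 and passed the threshold (limma adjusted p = 0.0372). Rpl19 (98026710 to 98030493) and Rpl23a (78180936 to 78183584), both at the tunnel exit, were low genes at 6.17 and 3.88 RPKM with log2 fold changes of -0.29 and -0.32, and their libraries overlapped between genotypes.

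**Figure D2:**
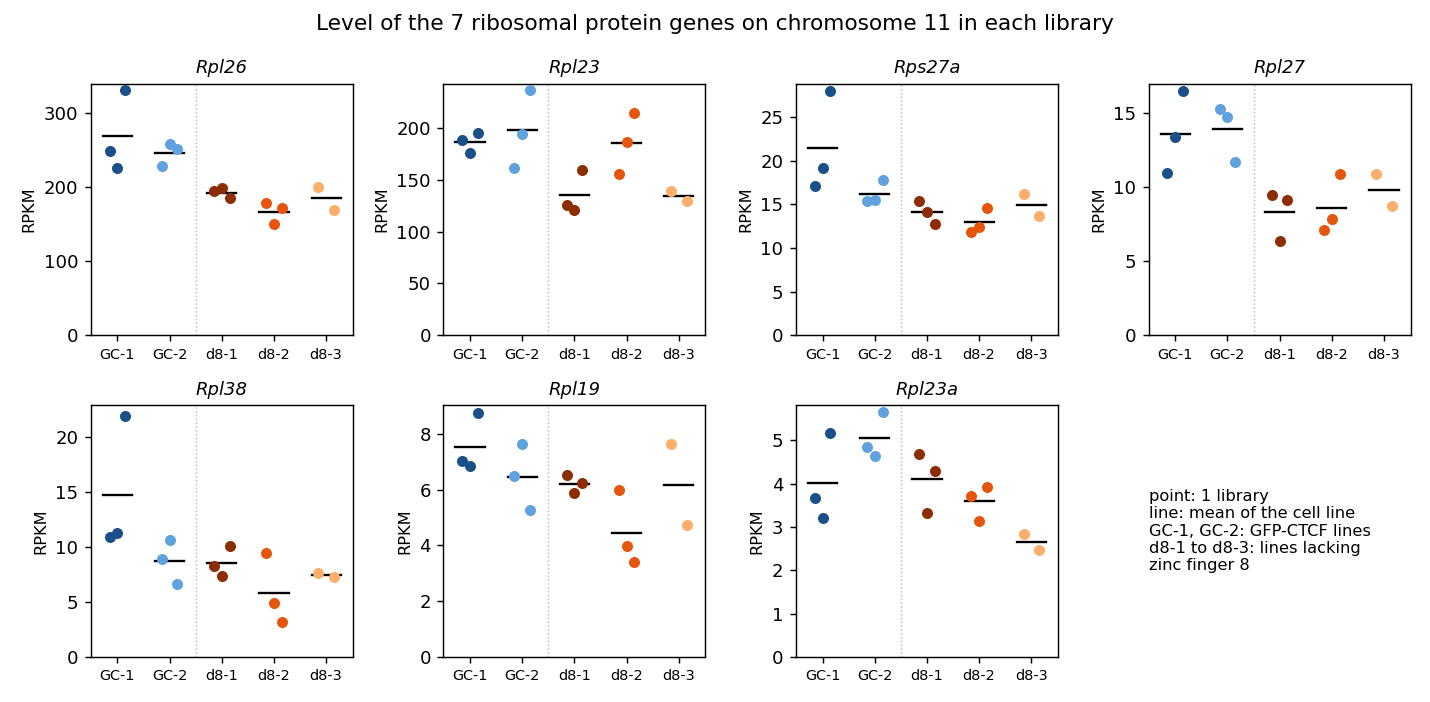
RPKM of the 7 ribosomal protein genes on chromosome 11 in every library (points) with the mean of each cell line (horizontal line); GC lines are left of the dotted line and d8 lines right of it, and each axis starts at 0. Rpl26 and Rpl27 do not overlap between genotypes, and the highest points of Rpl26, Rps27a and Rpl38 are library GC 1C at 331, 28.0 and 21.9 RPKM.

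The chromosome 11 shift was seen line by line. Relative to the mean of the 5 lines, the median deviation of the other tested chromosome 11 genes was 0.29 in GC line 1, 0.18 in GC line 2, -0.20 in d8 line 1, -0.10 in d8 line 2 and -0.17 in d8 line 3 (log2). The 7 members had medians of 0.33, 0.24, -0.11, -0.28 and -0.15 in the same lines. Direction was shared in all 5 lines, and the order of the d8 lines was not: among members d8 line 2 was lowest, among all chromosome 11 genes it was the d8 line nearest to GC. Members on the other chromosomes had medians of 0.002, -0.02, 0.07, -0.08 and 0.05, while single ones went further, down to -1.60 for Rpl10l in GC line 1. When each chromosome was centred on its own median in each line, the chromosome 11 members had a median log2 fold change of 0.01, 3 of 7 were negative, and no member was called. Rpl26 then stood at -0.10, Rpl27 at -0.19 and Rpl38 at -0.19.

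**Figure D3:**
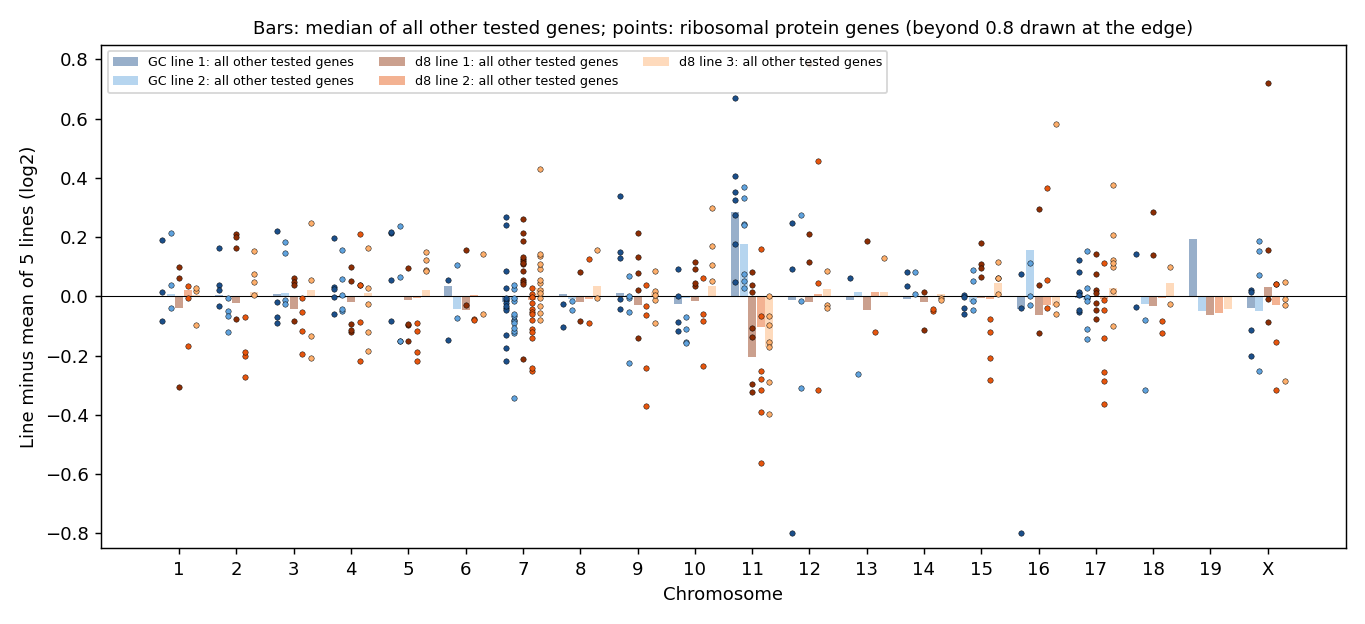
Deviation of each line from the mean of the 5 lines (log2), by chromosome: bars are the median of all tested genes other than ribosomal protein genes, points are single ribosomal protein genes, and values beyond 0.8 are drawn at the edge. On chromosome 11 the GC bars are at 0.29 and 0.18 and the d8 bars between -0.20 and -0.10; the points at the lower edge are Rpl10l and Rpl39l in GC line 1.

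Away from chromosome 11, regional shifts in single lines touched few members. For each member the tested genes within 5 Mb that are no members were taken as its neighbours. Neighbour medians beyond 0.15 in either direction were found outside chromosome 11 around Rpl10, Rpl13a, Rpl18, Rpl24 and Rpl35a, among others. Rpl10 (X chromosome, 74270816 to 74273135), whose protein joins the large subunit late in its assembly, was the clearest. It stood at 26.7, 29.2 and 26.5 RPKM in d8 line 1 and between 10.1 and 17.99 RPKM in the other 11 libraries, with no overlap. Against d8 line 1 it was lower by a log2 difference of -1.03 in d8 line 2 (SE 0.13, limma adjusted p = 0.000914) and of -0.67 in d8 line 3 (SE 0.15, limma adjusted p = 0.0494). Its 62 neighbours had a median deviation of 0.54 in d8 line 1 and between -0.17 and -0.11 in the other lines, while Rpl10 itself deviated by 0.72 in d8 line 1. The median over the X chromosome in d8 line 1 was 0.03, and the other tested X-linked members, Rpl36a, Rpl39 and Rps4x, were not called in any contrast between d8 lines.

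On chromosome 7 the neighbours of Rpl13a and Rpl18 had a median deviation of 0.17 in d8 line 1, where these members deviated by 0.13 and 0.22. These genes lie close together and share 119 neighbours each, so they are not independent. On chromosome 16 the genes around Rpl24 and Rpl35a had medians of 0.29 and 0.28 in GC line 2, while Rpl24 deviated by 0.11 and Rpl35a by 0.003. Rpl35a, with 827 reads per library, held 107 ± 13.5 RPKM in GC line 1 and 110 ± 4.12 RPKM in GC line 2 (SD, n = 3 libraries each). It thus did not show the shift of its neighbours, and the difference of 0.04 (log2) had an SE of 0.09. Chromosome 19, with a median deviation of 0.19 in GC line 1, holds no member. Over the 72 members in 5 lines outside chromosome 11 the Pearson correlation between a member's deviation and that of its neighbours was 0.22, over 360 points that share lines and members, and for the 7 members on chromosome 11 it was 0.75 over 35 points.

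Between lines of one genotype few members were called. Here a p-value reflects no more than how samples of a line vary, which can be technical variation. Of 79 members 3 were higher in GC line 2 than in GC line 1, where 6.6% of all genes were called in either direction. These were Rpl39l, Rpl10l and Rpl39. In d8 line 2 against d8 line 1 and in d8 line 3 against d8 line 1 the single member called was Rpl10, where 3.14% and 1.14% of all genes were called. In d8 line 3 against d8 line 2 none was called by limma, 9 had an unadjusted p under 0.05, and 0.112% of all genes were called. The median log2 difference of d8 line 2 minus d8 line 1 was -0.15 over members and 0.02 over all genes, and 19 of 79 members were above 0. That of d8 line 3 minus d8 line 2 was 0.13 over members and 0.01 over all genes. Of the 72 tested members outside chromosome 11, 31 were lowest in d8 line 2 and 28 were highest in d8 line 1, where 13.8% and 17.1% of all genes outside chromosome 11 were lowest and highest in these lines.

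Paralogs were followed beside the gene they resemble. Rpl22l1 (chromosome 3, 28805508 to 28807424) was the one member called outside chromosome 11; in mouse, Rpl22 is known to hold down the expression of Rpl22l1. The GC libraries of Rpl22l1 ran from 108 over a median of 159 to 169.1 RPKM, and the d8 libraries from 99.9 over 118 to 124 RPKM. The line means did not overlap, at 148 and 147 RPKM in GC and 120, 117 and 110 RPKM in d8, but library GC 2A at 108 RPKM lay within the d8 range. The log2 fold change was -0.34 (SE 0.07, limma adjusted p = 0.0340), and without GC 1C -0.30 (limma adjusted p = 0.0468). The call was lost when any 1 line was left out (limma adjusted p = 0.0673 to 0.127), and in fits over single libraries that took the line, the sample letter or the sample number as a block (limma adjusted p = 0.0650 to 0.0929). The call was also lost with chromosome 11 left out of the fit, with each chromosome centred and with no filter on low values. Over all genes, 368 of 11401, 550 of 12468 and 290 of 20792 were called in these fits. The neighbours of Rpl22l1 had deviations between -0.02 and 0.08 in the 5 lines. Rpl22 itself had a log2 fold change of 0.04 (limma adjusted p = 0.801), and the log2 ratio of Rpl22l1 to Rpl22 was -0.32 and -0.31 in the GC lines and -0.72, -0.57 and -0.78 in the d8 lines.

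Rpl10l (chromosome 12, 66283379 to 66284401) and Rpl39l (chromosome 16, 10170228 to 10174911), paralogs of the X-linked Rpl10 and Rpl39 known from male germ cells in mouse, had the highest log2 fold changes of all members. Rpl10l held 2.43, 2.77 and 4.07 RPKM in GC line 1 and 12.3, 13.5 and 15.9 RPKM in GC line 2. In d8 it held 21.5, 20.3 and 18.6 RPKM in line 1, 13.0, 20.8 and 14.6 RPKM in line 2 and 12.8 and 11.2 RPKM in line 3. GC line 2 thus lay among the d8 lines and GC line 1 lay alone below them. The genotype difference of 1.11 (SE 0.51) did not pass (limma adjusted p = 0.216). GC line 2 stood above GC line 1 by 1.88 (SE 0.17, limma adjusted p = 2.63e-05), and without GC line 1 the genotype difference was 0.17. Without GC line 2 it was 2.05 and passed (limma adjusted p = 0.0381). It also passed with the line or the letter as a block, but not the number (limma adjusted p = 0.0317, 0.0467 and 0.0542).

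Rpl39l held 2.70, 4.27 and 5.69 RPKM in GC line 1 and 9.42, 8.46 and 14.5 RPKM in GC line 2. In d8 it held 13.5, 12.9 and 13.9 RPKM in line 1, 13.9, 19.1 and 10.6 RPKM in line 2 and 17.99 and 15.3 RPKM in line 3. The line means did not overlap between genotypes, but the libraries of GC line 2 did with d8. The genotype difference was 1.04 (SE 0.32, limma adjusted p = 0.0916), and that between the GC lines 1.19 (SE 0.23, limma adjusted p = 0.00932). Without GC line 1 the genotype difference was 0.44, and without GC line 2 it was 1.63 and passed (limma adjusted p = 0.0324). It also passed in the fits with the line, letter or number as a block (limma adjusted p = 0.0152 to 0.0493). Neighbours of either paralog deviated by at most 0.10 in any line. In GC line 1 Ctcf was low as well, as given above; the part of that difference in these values was not tested. Rpl39 differed little. Its means were 99.9 and 124 RPKM in GC lines 1 and 2, those of d8 lay between 102 and 112 RPKM, and the GC lines had a difference of 0.30 (log2, SE 0.08, limma adjusted p = 0.0384).

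**Figure D4:**
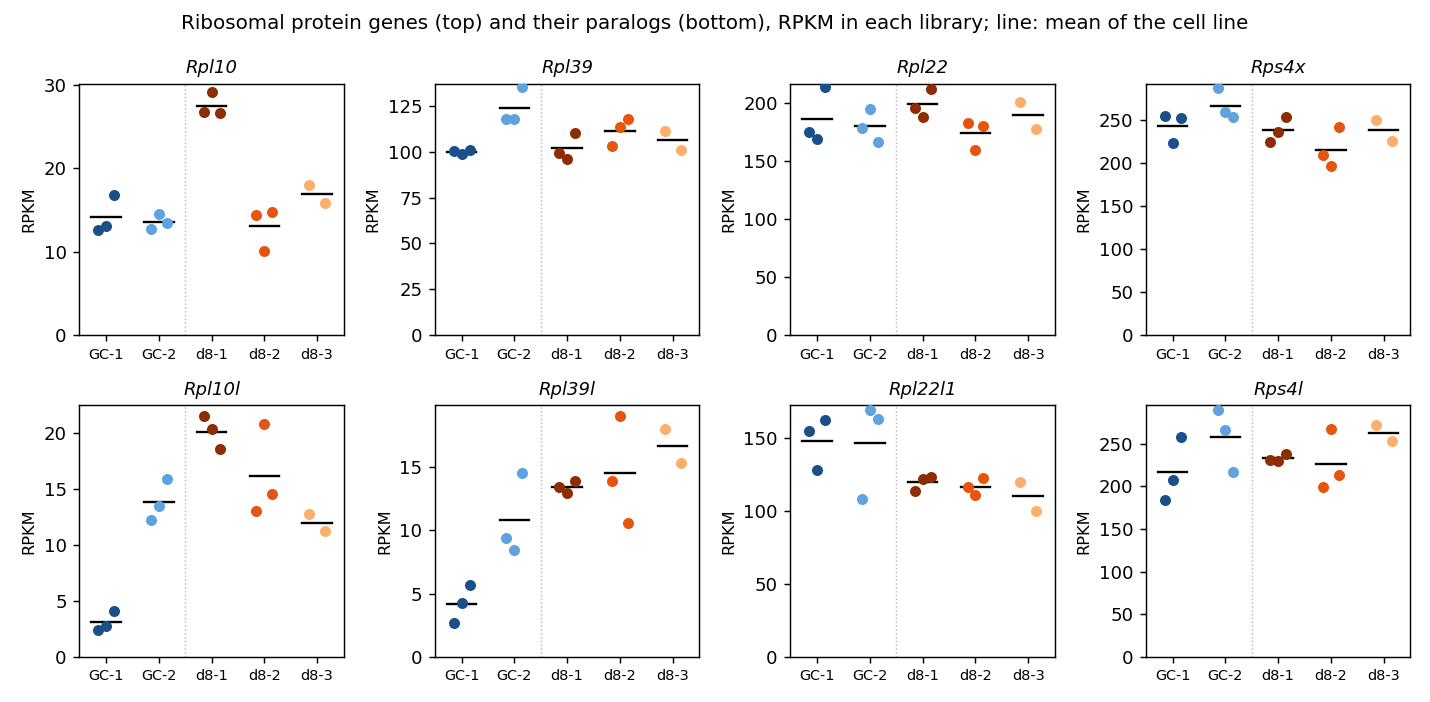
RPKM of 4 ribosomal protein genes (top) and their paralogs (bottom) in every library (points), with the mean of each cell line (horizontal line), GC lines left and d8 lines right of the dotted line, and axes from 0. Rpl10 is highest in d8 line 1, Rpl10l and Rpl39l are lowest in GC line 1, and Rpl22l1 is lower in the d8 lines with library GC 2A at 108 RPKM as the exception.

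Rps4x on the X chromosome and Rps4l, its retrocopy at the distal end of chromosome 6 (148354656 to 148355596), stood at the same level, 240 and 239 RPKM as means of the 5 lines. Their sequences are close enough that the authors' counting may split reads between them. Rps4l held 217 and 258 RPKM in the GC lines and 233, 227 and 263 RPKM in the d8 lines, which overlapped, and its 30 neighbours were highest in d8 line 2, with a deviation of 0.13, where Rps4l was at -0.08. Rpl7l1, which works in ribosome assembly, held 85.4 RPKM against 458 RPKM of Rpl7, and Rps27l held 185 RPKM against 3.53 RPKM of Rps27. Rpl3l, the muscle form of Rpl3, stayed at or below 0.95 RPKM in every library, beside 71.2 RPKM of Rpl3. Rpl36a stood at 2.06 RPKM, and its retrocopy Rpl36al had log2 ratios to it between 3.65 and 4.26 in the 5 lines. None of these members was called between genotypes.

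By role, few members fell. In the 5S ribonucleoprotein, which can bind Mdm2 when ribosome assembly fails, Rpl5 went from 10.0 ± 0.821 RPKM (SD, n = 2 lines) to 8.38 ± 1.02 RPKM (SD, n = 3 lines) and Rpl11 from 5.18 ± 0.488 to 4.46 ± 0.367 RPKM, with log2 fold changes of -0.24 and -0.17 that did not pass (limma adjusted p = 0.272 and 0.411). Of 8 members at the exit tunnel 1 fell, Rpl26, and 4 of the 8 lie on chromosome 11. Of 17 whose human genes are mutated in Diamond-Blackfan anaemia 2 fell, Rpl26 and Rpl27, and of 9 Mdm2-binding members 1 fell, Rpl26. These calls are the same chromosome 11 genes, a chromosome on which 36.3% of all tested genes fell, and no member of these groups on another chromosome was called. Rps6, the substrate of the S6 kinases, was at 8.21 ± 0.0219 RPKM in GC and 8.84 ± 0.862 RPKM in d8. Rps26, which lies at the mRNA exit of the small subunit, had line means of 751 and 728 RPKM in GC and 838, 845 and 909 RPKM in d8. The log2 fold change was 0.23 (SE 0.07, limma adjusted p = 0.0967). It and Rpl31, named after their values were seen, were the members nearest the threshold outside chromosome 11 after Rpl39l, with Rpl31 at -0.34 (limma adjusted p = 0.108).

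Outside chromosome 11 the medians of both subunits lay near 0, and their difference was not tested. The 41 tested large-subunit members there stood at a median of 0.02 (log2 fold change) with quartiles of -0.08 and 0.08, and the 31 small-subunit members 0.08 with quartiles of -0.07 and 0.12. Every d8 line mean lay below every GC line mean in 8 of these 72 members and above in 6, where 21.7% and 21.8% of all tested genes outside chromosome 11 did so. The 34 members there at 100 RPKM or more had an SD of 0.11 in their log2 fold changes, against 0.24 over the 525 genes at that level on those chromosomes.

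The authors' deposited table of control against del8 cells lists 3 members among its 1280 genes. In the authors' deposited table Rpl39l has a log2 fold change of 1.15 (adjusted p = 1.18e-06), Rps19 one of 0.65 (adjusted p = 0.00184) and Rpl13a one of 0.55 (adjusted p = 8.73e-06). Neither the sign convention nor the test is stated there. Of 280 genes in the authors' deposited table that were called here, 273 had the same sign there as d8 minus GC here, and so had 1029 of all 1239 shared genes. In the lines described here Rps19 held 430 and 403 RPKM in GC and 453, 435 and 465 RPKM in d8, a log2 fold change of 0.12 (limma adjusted p = 0.296), and Rpl13a stood at 0.08 (limma adjusted p = 0.566).

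CTCF peaks lay near many of the start sites. The deposited lists, from 1 GC and 1 Del8 library, hold 26729 and 15546 peaks of fixed width. A peak centre lay within 1 kb of the annotated start in 24 of the 81 members in GC (29.6%) and in 16 in Del8 (19.8%), against 9.91% and 6.91% of all genes of the table and 14.2% and 10.54% of the tested genes at 100 RPKM or more. After the start sites were moved by 100 kb, 9 members (11.11%) had a GC peak and 4 (4.94%) a Del8 peak, against 4.02% and 2.14% of all genes. The members' share was thus above that of all genes at the moved sites too. Of the 24 GC peaks, 14 had a Del8 peak within the same window (58.3%), beside 57.7% over all genes with a GC peak, a share near that of the table at large. A shared window need not be a shared site: at Rps15 the centre lay at -78 bp in GC and at 951 bp in Del8. With 1 library in each list there is no test, and the Del8 library was shallower at 5.59 M tags against 8.09 M.

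Members on both sides of that split included genes of similar task. A peak in both lists was found at Rpl5, with centres at -36 and -70 bp from the start, at Rpl26, at -79 and -85 bp, and at Rpl36, Rps3a1, Rpl37 and Rps4x among others. A GC peak with none in Del8 was found at Rpl11 (at -138 bp), Rpl27 (at -105 bp), and Rpl38 (at -312 bp), and at Rpl13, Rps14, Rps19, Rps20 and Rps4l among others. The GC peak of Rpl26 was number 376 of 26729 in the deposited order. Of the 2 members called on chromosome 11, Rpl26 thus had its peak in both lists and Rpl27 in GC only. The 10 members with a GC peak only had a median log2 fold change of 0.03 (4 below 0). The 14 with a peak in both, Rps15 included, had -0.05 (8 below 0), and the 54 tested members with no peak 0.01 (27 below 0).

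**Figure D5:**
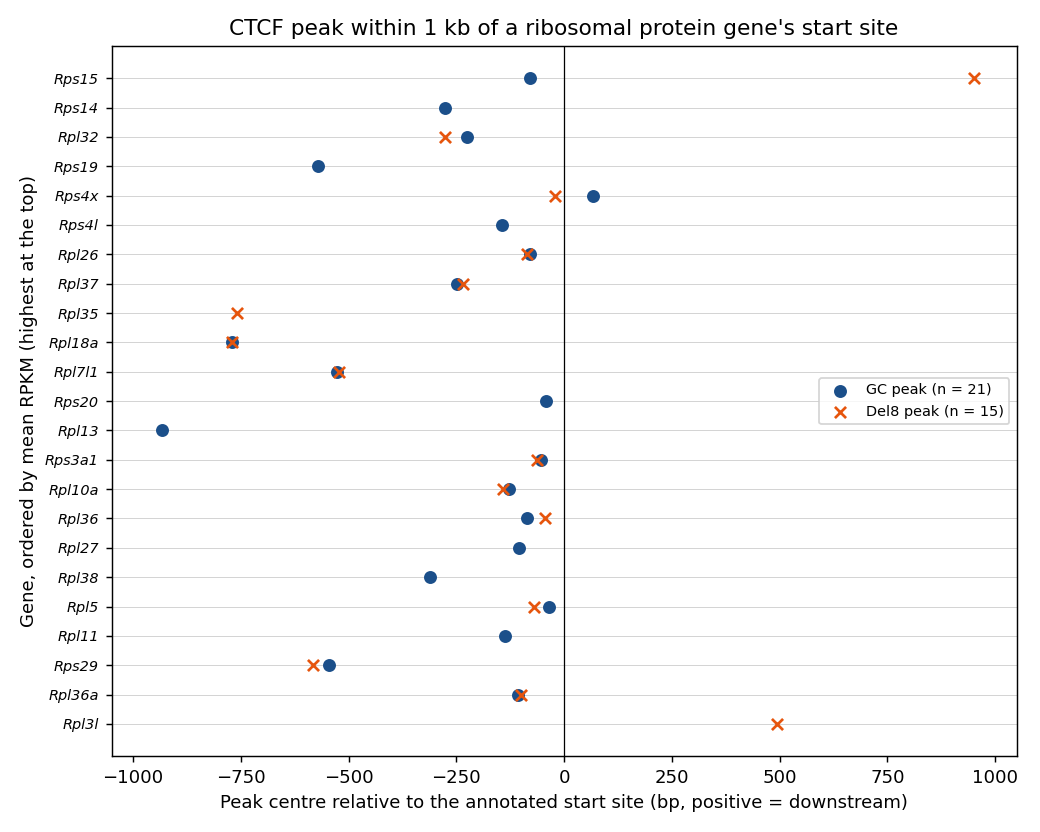
Position of CTCF peak centres within 1 kb of the annotated start site of ribosomal protein genes, in bp with positive values downstream; circles are peaks of the GC list (21 of the 24 drawn) and crosses those of the Del8 list (15 of the 16 drawn), and genes are ordered by mean RPKM. Of the 21 circles 12 lie within 200 bp of the start, and 8 genes have a circle with no cross.

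The sequence at the start sites is shown for members on which the results turn, from RefSeq on GRCm38.p6, which matched 61 of the 81 members. A tract was counted where a C within 5 bases of the annotated start began a run of at least 5 pyrimidines. It was present in 28 of the 61 (45.9%), against 20.4% of tested genes and 18.35% of all promoters, and runs of at least 8 in 19 (31.1%), against 4.88% of tested genes. Of the 5 matched members on chromosome 11, 2 had a tract, Rpl38 and Rpl19. The 30 bases below hold 10 before the annotated start and 20 from it on, with the tract in capitals. Rpl13a is given as a high member with a long tract. For Rpl38 the RefSeq start lies 201 bp from that of the expression table.
Rpl13a: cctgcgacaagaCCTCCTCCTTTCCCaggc
Rpl38: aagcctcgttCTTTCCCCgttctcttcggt
Rpl19: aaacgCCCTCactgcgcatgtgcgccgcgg
Rpl22l1: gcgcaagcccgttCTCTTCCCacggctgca

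In the members below no such run begins within 5 bases of the annotated start, whose single base is in capitals. They include both members called on chromosome 11 and both paralogs that were low in GC line 1. An annotated start can miss the base at which transcription begins, and the absence of the letters says nothing about how these mRNAs are translated.
Rpl26: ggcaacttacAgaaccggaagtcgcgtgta
Rpl27: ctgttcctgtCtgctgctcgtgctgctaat
Rpl23: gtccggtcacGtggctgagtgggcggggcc
Rpl10l: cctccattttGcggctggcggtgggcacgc
Rpl39l: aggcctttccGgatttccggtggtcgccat

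The core of the CTCF motif, searched on both strands, was found from 250 bases before to 50 after the start in 7 of the 61 members (11.5%), against 8.61% of all promoters and 13.2% of tested genes. Among the 14 of these members with a GC peak 4 held it. The matches nearest to a GC peak centre were those of Rpl38, 6 bp from it, and Rpl5, 22 bp from it, and these are shown with the core in capitals. Rpl5 (chr5:107900456-107900485, plus strand) kept its peak in Del8 and Rpl38 (chr11:114668449-114668478, plus strand) did not. The ETS-type motif CCGGAAG, on either strand, was present in 23 members (37.7%), against 19.0% of tested genes. A tract was present in 1 of the 14 members with a GC peak within 1 kb and in 27 of the 47 without one, a count that was not tested.
Rpl5: atcctcctaCCGGCAGGGGGCgatagcccg
Rpl38: taatctgaaCCAGAAGAGGGCagggctgct

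Other genes of the translation machinery were counted the same way, from fixed lists. Of 8 ribosomal proteins with symbols outside the rule 2 fell, Rplp0, the base of the ribosomal stalk, and Rack1, a scaffold on the small subunit, where 5.74% of all tested genes fell and 36.3% of those on chromosome 11. Rplp0 (chromosome 5) went from 637 ± 21.8 RPKM (SD, n = 2 lines) to 472 ± 31.5 RPKM (SD, n = 3 lines), or -0.43 on the log2 scale (SE 0.08, limma adjusted p = 0.0291), and missed the threshold with any 1 line left out (limma adjusted p = 0.0520 to 0.122). Rack1 lies on chromosome 11 and fell by 0.37 on the log2 scale (limma adjusted p = 0.0466), but not past the threshold without library GC 1C (limma adjusted p = 0.0723). When each chromosome was centred in each line Rack1 stood at 0.03. Of 15 elongation and TOP factors none was called by limma and 1 had an unadjusted p under 0.05, as had 3470 of all 12468 genes tested. Eef1a1 stood at 1948 RPKM in GC and 2006 RPKM in d8.

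Of 40 ribosome assembly factors 5 fell and none rose, beside the 5.74% of all tested genes that fell. Among these, Bysl on chromosome 17, needed for the small subunit, went from 32.1 to 21.2 RPKM (log2 fold change -0.57, limma adjusted p = 0.0255), and missed the threshold with any 1 line left out (limma adjusted p = 0.0544 to 0.0880). The 4 others lie on chromosome 11, Npm1 with -0.49, Ftsj3 with -0.52, Pes1 with -0.40 and Tsr1. Of 16 genes of RNA polymerase I and its factors none was called by limma and 6 had an unadjusted p under 0.05. Of all 12468 genes tested 3470 had such a p. Among the 6 were Polr2f at 134 RPKM in GC and 115 RPKM in d8 and Rrn3, which was higher in d8, at 93.6 and 111 RPKM. In all, 7 of 79 genes in these lists were called, 5 of them among the 7 that lie on chromosome 11, where 5.74% of all tested genes fell, 3.02% rose and 36.3% of those on chromosome 11 fell. On chromosome 11 the count in these lists was above the share of that chromosome, which was not tested. Elsewhere 2 were called, Rplp0 and Bysl, and 2.89% of all tested genes outside chromosome 11 fell.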

How the data were processed

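The members and gene lists were chosen with earlier results of these data known. Per the labels' protocols, stranded mRNA libraries were read as single-end reads, and the authors deposited RPKM values that HOMER, per the file headers, counted over mm10 exons, with no strand setting named. Low values were whole multiples of 1 read (100% within 0.1 read), which gave the depths; no count test was run. The header names both an RPKM option and a norm of 10 M; RPKM was read as per M reads, on which the depths rest. The peak lists are the authors', called with HOMER per the file headers, with a score of 1 for every peak as deposited, and were taken as mm10. The authors' deposited table gives log2 fold changes and p-values; 5 of its columns match no sample by name and were not used.

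Values were averaged per line as log2(RPKM + 1). Genes that reached 1 RPKM as a genotype mean were tested, 12468 in all, with limma 3.58.1 (R 4.3.3), trend, two-sided, Benjamini-Hochberg threshold 0.05, a fit tested on simulated data. Contrasts between lines used limma over the 14 libraries. Genes were named by a rule: members called, on chromosome 11, in paralog pairs, at the extremes of level, called between lines, of highest level among those with a peak, or of known role. Alternatives changed the pseudocount, filter, scaling, centring, block and lines. Some genes are counted but not reported singly here. Further ChIP-seq and all Med-Seq samples were left aside.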

Additional observations from a re-analysis of the deposited data

Results flagged for a closer look

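In groups of 6 or 8 libraries, single libraries stood far from the rest in 6 of the 74 member and genotype pairs examined, all among GC libraries; chance flags about 1 in 20. Library GC 1C was the high one in 5 of them. It held 330.8 RPKM of Rpl26, against 226 to 258 in the other GC libraries, 793.8 RPKM of Rpl32, against 534 to 627, and 21.9 RPKM of Rpl38, against 6.66 to 11.3. It also held 28.0 RPKM of Rps27a, against 15.4 to 19.2, and 1092 RPKM of Rps3, against 788 to 897. A low value set apart Rpl11 in GC 2C, at 3.27 RPKM against 5.27 to 5.95.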

How the results depend on the processing

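Of 3 members called (2 on chromosome 11, 1 elsewhere) and 7 other translation genes, no filter on low values left 0, 0, 0 and 0, with more genes tested. Over all genes, 290 of 20792 were then called, against 1092 of 12468 in the main fit. With the line as a random block, 5 members, 3 of them outside chromosome 11, and 11 other translation genes were called, among 2545 of all 12468 genes. Sample numbers did not pair the libraries: deviations of same-numbered libraries correlated by -0.19 to 0.08, and those of same-lettered libraries by -0.16 to 0.31 over 16 pairs. With the sample letter as a replicate block, 2 members outside chromosome 11 and 11 other translation genes were called, and with the full number as a replicate block, over 12 libraries, 5 members, 2 of them outside chromosome 11. Of all genes, 2230 of 12468 were called with the letter and 2036 of 12430 with the number. Rpl39l was called and Rpl22l1 was not in each of these 3 fits. Leaving out 1 d8 line at a time gave 0 to 2 members, all on chromosome 11. No member was called without d8 line 1 or d8 line 3, and without d8 line 2 the calls were Rpl23 and Rpl26. A fit without GC line 1 or GC line 2 rests on 1 GC line, and its count of calls is left out here. With each chromosome centred the counts were 0, 0, 0 and 2, and with chromosome 11 left out 0 members, 0 of those elsewhere, and 2 other translation genes. After centring, 550 of all 12468 genes were called, and with chromosome 11 left out 368 of 11401. Without d8 line 1, 2 or 3 in turn, 115, 577 and 30 of all genes were called. The median log2 fold change of the chromosome 11 members was -0.38 in the main fit, over 7 members. It was -0.4955 with a filter at 10 RPKM, over the 5 that passed it, -0.5502 without GC line 2 and 0.0122 after centring. Rack1 reversed to 0.027 after centring. Centring moved the share of higher calls over all genes from 34.4 to 51.5%, and rescaling to the same sum moved it to 46.6%.

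Between d8 lines 3 and 1 the count was 0 at a pseudocount of 0.1 and with no filter, and between d8 lines 2 and 1 it was 2 after rescaling. Without 1 sample letter, counts were 1 to 4 between GC lines, 0 to 6 between d8 lines 2 and 1 and 0 to 1 between d8 lines 3 and 1. These counts of members stand without the number of all genes called in the same fits, so they describe no trait of the members. The difference in share was 0.0807 percentage points in reads. GC and Del8 peaks were near 14 and 8 members within 200 bp, 45 and 30 within 5 kb, and 15 and 9 in the first part of each list. Leaving out GC 1C, chosen after seeing the data, left the same 3 members called, as did neighbour windows of 2 and 10 Mb leave the Rpl10 shift, at 0.59 and 0.56. The causes of these changes were not tested. Of single-gene values over the alternatives, 646 kept their direction and their side of the threshold (or moved by less than 1 SD), 63 lost the call, 10 gained one, 44 values moved further and 1 reversed. Members under 100 reads per library and those with close copies limit what could be detected.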
